A study of Mus musculus with 6 samples.

Results

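The proteasome is the barrel-shaped protease that degrades proteins tagged with ubiquitin. The genes described here encode its subunits, activators, inhibitor and assembly factors. They were chosen by symbol, as every gene named Psma, Psmb, Psmc, Psmd, Psme, Psmf or Psmg followed only by digits, and 47 of the 18193 genes measured met that rule. Expression was measured on 1-colour Affymetrix arrays in C57BL/6 mouse cells. Bone marrow plasma cells (B220-, CD138+) made up 3 arrays, with cells taken 7 days after mice were boosted with KLH, keyhole limpet hemocyanin, which is used as a protein antigen. Magnetic beads against CD138 enriched them before the sort. The 3 other arrays held splenic B cells (B220+, CD23+) that the labels call naive and mature follicular. Each plasma cell array used 50000 to 70000 cells and each B cell array 2000000 to 3000000. No allele or agent other than the antigen is named, the labels state no age, and nothing says whether the 3 samples of a group came from separate animals. P-values therefore cover only the spread among these arrays, and that spread may be technical. Tissue, boost, bead enrichment and input all went with the cell type and cannot be told apart from it.

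The proteasome has a core particle of 4 stacked rings. The alpha subunits (Psma) form the outer rings, which gate the barrel, and the beta subunits (Psmb) form the inner rings, which hold the catalytic sites. A regulatory particle caps the core: its base holds the ATPases (Psmc) that unfold substrates, and its lid (Psmd) removes ubiquitin. In lymphocytes and in cells exposed to interferon, the catalytic subunits Psmb5, Psmb6 and Psmb7 can be replaced by Psmb8, Psmb9 and Psmb10, which gives the immunoproteasome and alters the peptides available for MHC class I. Plasma cells make large amounts of antibody, part of which misfolds and is handed from the endoplasmic reticulum (ER) to the proteasome, and proteasome inhibitors are used against myeloma, a plasma cell tumour.

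The arrays carried the markers of their labels. The summed intensity of 5 plasma cell markers lay between 62167 and 64588 on the plasma cell arrays, against 6521 to 7636 on the B cell arrays, and that of 5 measured B cell markers between 10341 and 10777 against 34183 to 39261. B cell array 1 stood apart. Its log2 values correlated with those of B cell arrays 2 and 3 at 0.933 and 0.926 across probe sets, where arrays 2 and 3 reached 0.992, and 7 of 8 measured T and NK cell markers, 7 of 8 granulocyte markers and 4 of 5 erythroid markers were higher on it than on both other B cell arrays. Granulocyte markers summed to 8460 to 19946 on the plasma cell arrays and 1916 to 12745 on the B cell arrays. T and NK cell markers summed to 1847 to 4730 on the plasma cell arrays and 7204 to 9972 on the B cell arrays, and erythroid markers to 216 to 532 and 90.5 to 1447. The ratio of the 3 prime to the 5 prime Gapdh control probe sets, a measure of RNA integrity and amplification, was 1.60 to 1.69 on plasma cell arrays and 1.91 to 2.36 on B cell arrays, and that of the actin control 1.67 to 1.77 and 1.49 to 1.59. Monocyte and macrophage markers summed to 620 to 1162 on plasma cell arrays and 3265 to 5070 on B cell arrays. The 6 basophil, mast cell and eosinophil markers summed to 12372 to 13666 and 219 to 489, nearly all of it Prg2, which was at 12227 to 13530 in plasma cells. Dendritic markers summed to 530 to 1167 and 487 to 623, megakaryocyte markers to 221 to 299 and 171 to 231, and stromal and endothelial markers to 993 to 1115 and 1373 to 1796. Single genes carried some of these sums. Without Cd2, T and NK cell markers summed to 1553, 1120 and 3988 on plasma cell arrays 1 to 3, against 5255 on B cell array 1 and at most 292 on B cell arrays 2 and 3, so the direction against those 2 arrays turned. Much of what was left in plasma cells was again 1 gene, Il7r, at 963, 559 and 2834 on plasma cell arrays 1 to 3. On B cell arrays 1 to 3 Il7r was at 651, 36.1 and 30.0. Without Pecam1, stromal and endothelial markers summed to 540 to 699 on plasma cell arrays, against 575 on B cell array 1 and 275 and 244 on the others. Most of that plasma cell sum was Cdh5, an endothelial cadherin, at 426 to 539 in plasma cells and 80.5 to 115 in B cells. The rest of that list went the other way. Log2 fold changes of plasma cells over B cells were −1.44 for Pecam1, −0.66 for Col1a1, −0.48 for Col1a2, −0.61 for Cxcl12 and −0.35 for Lepr. Without Flt3, dendritic markers summed to 270 to 400 in plasma cells and 402 to 580 in B cells. None of the 5 erythroid markers was over background on both B cell arrays 2 and 3. The part of these differences in the results below was not tested. The results are therefore given with and without B cell array 1.

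Of the 47 proteasome genes, 20 rose and 1 fell in plasma cells, against 17.6% of all genes called higher and 12.3% called lower. A gene counts as called when its adjusted p is under 0.05 in limma, a linear model fitted across all 18193 genes. The fit used log2(intensity + 16), with Benjamini-Hochberg adjustment over all genes. All genes include dim ones. In a fit on the 13636 genes over background (defined below) on at least 3 arrays, 3356 were called higher and 2475 lower. Of 45 members in that fit, 21 were called higher and 1 lower. The rises were moderate: among the genes called higher the log2 fold change ran from 0.48 (Psma6, 1.40-fold) to 1.77 (Psmd7, 3.42-fold), and 3 of the 20 reached 2-fold. The median log2 fold change of the 47 genes was 0.39, with quartiles of 0.14 and 0.70, against a median of −0.06 over all genes. In 32 of the 47 genes every plasma cell array lay above every B cell array, and in 1 every one lay below, where 25.4% and 22.4% of all genes were separated in these directions. The plot of log2 fold changes by class shows that the rises were spread over the rings of the core, the lid and the core assembly factors. In bulk samples such as these, a change in the share of cells that carry a transcript and a change in RNA per cell cannot be told apart.

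**Figure D1:**
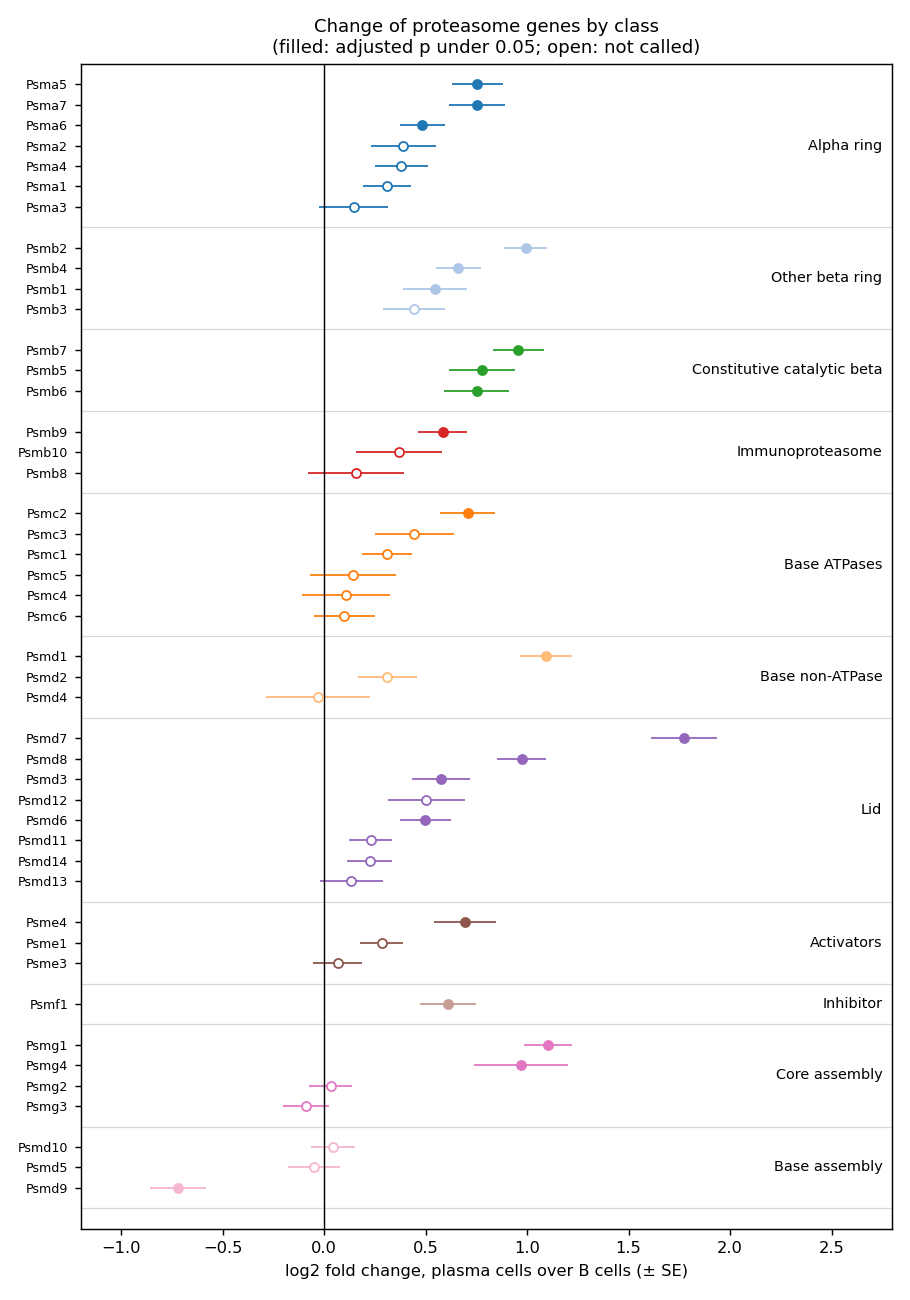
Log2 fold change of plasma cells over B cells (x axis, ± SE from limma, 3 arrays each) for the 45 proteasome genes over background on all 6 arrays, grouped by class, with filled points for an adjusted p under 0.05. The constitutive catalytic genes Psmb5, Psmb6 and Psmb7 lie between 0.75 and 0.96, Psmd7 is highest at 1.77 and Psmd9 lowest at −0.72. After median centring the points of Psma3, Psmb8, Psmc4, Psmc5, Psmc6, Psmd10, Psmd13, Psme3 and Psmg2, all uncalled, fall below 0.

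B cell array 1 bears on these sizes. On it, 37 of the 47 genes lay below both other B cell arrays, where 44.8% of all genes did, and relative to the average of B cell arrays 2 and 3 its median log2 value was −0.27 for the members and −0.01 for all genes. Without that array 24 members rose and 2 fell, against 22.7% and 21.1% of all genes called in these directions, and all 20 genes that rose with 6 arrays were among the 24. The median change of the members was then 0.29. The plot of both fits shows most members somewhat below the diagonal. The size of the count depends on the arrays and the scaling. It was 9, 10 and 11 without plasma cell array 1, 2 or 3, and 30 with array weights. It was 6 after each array was centred on its own median. Over all 18193 genes, 2224, 2309 and 2416 were called higher without plasma cell array 1, 2 or 3, and 4840 with array weights. After centring, 6 of 47 members stood beside 2028 of 18193 genes, shares that lie close together. Centring shifts every gene's log2 fold change by the same amount, and it moved the median of all genes to −0.27. The genes Psmb2, Psmb7, Psmd1, Psmd7, Psmd8 and Psmg1 were called higher in all 17 settings tried, and only they were after centring. A fit with the array number as a replicate block lost the calls of Psma6, Psmb1, Psmb9, Psmc2, Psmd3, Psmd6, Psme4 and Psmf1. The mean of all probe sets lost those of Psma6, Psmb1, Psmf1 and Psmg4. The losses named below for single genes are mainly those from leaving an array out.

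**Figure D2:**
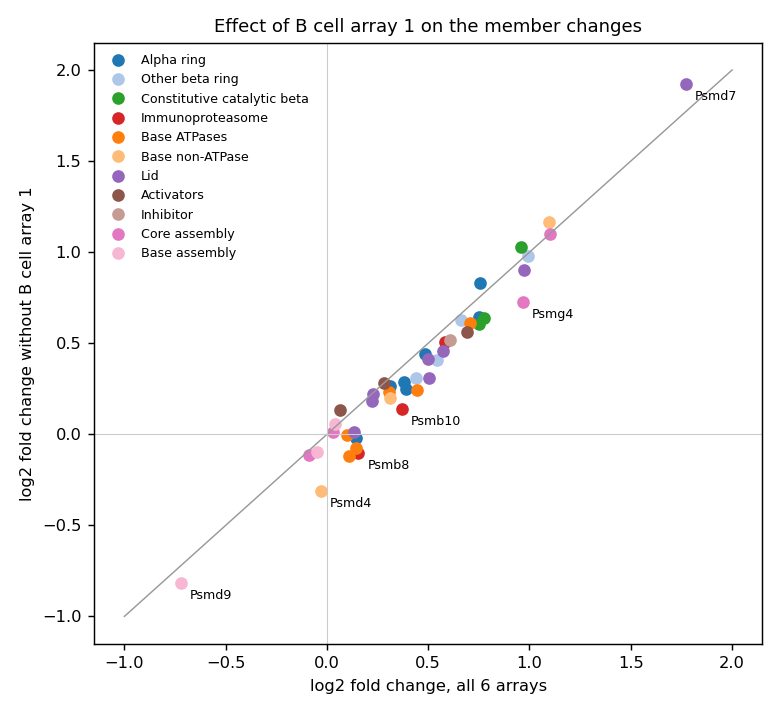
Log2 fold change of the 45 proteasome genes over background on all 6 arrays, with all arrays (x axis) and without B cell array 1 (y axis), coloured by class; the diagonal marks equal values. Psmb8 moves from 0.16 to −0.10, Psmd4 from −0.03 to −0.31 and Psmg4 from 0.97 to 0.73, while Psmd7 moves from 1.77 to 1.93.

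The 7 widely expressed alpha subunits had log2 fold changes between 0.14 and 0.76, and 3 of them rose, where 17.6% of all genes did. Psma5 was at 5768, 5979 and 5725 in plasma cells, against 3823, 3427 and 3117 in B cells (0.76 ± 0.13 as log2 fold change with its SE, limma adjusted p = 0.00656). The groups did not overlap, and the plasma cell arrays differed by little. The smallest rise of the class was that of Psma6, at 6778, 6623 and 6702 in plasma cells and 4517, 4957 and 4904 in B cells (0.48 ± 0.11, adjusted p = 0.0211). That call was lost without any plasma cell array and without B cell array 2 or 3. Psma7 rose by 0.75 ± 0.14. The other members were Psma2 (0.39), Psma4 (0.38), Psma1 (0.31) and Psma3 (0.14), none of which was called. Psma4 was called without B cell array 1 (0.29, adjusted p = 0.0368). Psma8, a subunit of the testis proteasome, was over background on 2 of 6 arrays, at 68.8 on plasma cell array 2 and 163 on B cell array 1, and no fold is given for it. Background here is the 95th percentile of 27 bacterial control probe sets, which lay between 23.0 and 41.8 over the arrays.

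All 3 constitutive catalytic genes rose. Psmb5, the subunit with chymotrypsin-like activity and the main target of bortezomib, was at 4804, 4905 and 4855 in plasma cells, against 2321, 3304 and 2940 in B cells (0.78 ± 0.16, adjusted p = 0.0147). Psmb6, with caspase-like activity, was at 7278, 7366 and 7430 in plasma cells and 3581, 4967 and 4679 in B cells (0.75 ± 0.16, adjusted p = 0.0157). Psmb7, with trypsin-like activity, was at 5074, 5110 and 5101 in plasma cells and 2899, 2622 and 2358 in B cells (0.96 ± 0.13, adjusted p = 0.00256). For each of these genes the lowest plasma cell array lay well above the highest B cell array. Of the 4 beta subunits without catalytic sites, 3 rose. Psmb2 was at 2693, 2841 and 2838 in plasma cells, against 1372, 1394 and 1417 in B cells (0.99 ± 0.11, adjusted p = 0.00121), a change close to a doubling, with tight groups on both sides. Psmb4 rose by 0.66 ± 0.11, and Psmb1 was at 7839, 7917 and 7970 in plasma cells and 4469, 6242 and 5689 in B cells (0.55 ± 0.16, adjusted p = 0.0463). Psmb3 had 0.44 ± 0.15 and was not called with 6 arrays (adjusted p = 0.0786); a dimmer probe set of the gene was called with 0.75 ± 0.12. Taking the 14 constitutive core genes as a class, 9 rose (64.3%) and 0 fell, against 17.6% and 12.3% of all genes. The median change was 0.60. In 13 genes (92.9%) the plasma cell arrays all lay above the B cell arrays, against 25.4% of all genes. Without B cell array 1, 11 rose, where 22.7% of all genes did, and the median was 0.52. The call of Psmb1 was lost without B cell array 2 or 3 or any plasma cell array. Those of Psmb5 and Psmb6 were lost when any plasma cell array was left out and after median centring. They were kept when any B cell array was left out.

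Of the 3 immunoproteasome genes, 1 rose (33.3%), where 17.6% of all genes did. Psmb8, the counterpart of Psmb5, was at 5695, 5572 and 5408 in plasma cells, against 3482, 6128 and 5811 in B cells (0.16 ± 0.24, adjusted p = 0.668). The plasma cell values fell between those of B cell array 1 and those of the other B cell arrays, and without array 1 the log2 fold change was −0.10 (adjusted p = 0.384). Psmb9, the counterpart of Psmb6, was at 7166, 7192 and 6914 in plasma cells and 4258, 4942 and 5018 in B cells (0.58 ± 0.12, adjusted p = 0.0154). This gene rose, with separate groups, and also without B cell array 1 (0.51, adjusted p = 0.00613). Its call was lost without plasma cell array 1 or 2, after median centring and with the replicate block. Psmb10, the counterpart of Psmb7, was at 5514, 5821 and 5740 in plasma cells, against 3212, 5187 and 5128 in B cells (0.37 ± 0.21, adjusted p = 0.258). The groups were separate, but the distance was small except from B cell array 1, and without that array the log2 fold change was 0.14. The thymus subunit Psmb11 was within background on all 6 arrays, and no fold is given for it either.

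The change of each immunoproteasome gene relative to its constitutive counterpart was taken within each array, as the difference in log2 ratio between the groups. A ratio between probe sets shows only unequal change, not unequal amount. For Psmb8 over Psmb5 the log2 ratio was 0.24, 0.18 and 0.15 in plasma cells and 0.58, 0.89 and 0.98 in B cells, a difference of −0.62 ± 0.12 SE. Every plasma cell array was lower than every B cell array. For Psmb9 over Psmb6 the difference was −0.17 ± 0.08, with ratios of −0.02, −0.03 and −0.10 in plasma cells and 0.25, −0.01 and 0.10 in B cells. These groups were separate by a narrow margin. For Psmb10 over Psmb7 it was −0.59 ± 0.30, with 0.12, 0.19 and 0.17 in plasma cells and 0.15, 0.98 and 1.12 in B cells, and the groups overlapped through B cell array 1. Two-sided exact permutation tests over arrays gave p = 0.1 for both of the first pairs, which is the smallest value 3 against 3 arrays allow, and p = 0.3 for the third (0.15, 0.15 and 0.3 adjusted over the 3 pairs). The design cannot reach 0.05 here. Without B cell array 1 the differences were −0.74, −0.10 and −0.89, each with the smallest possible p of 0.2.

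**Figure D3:**
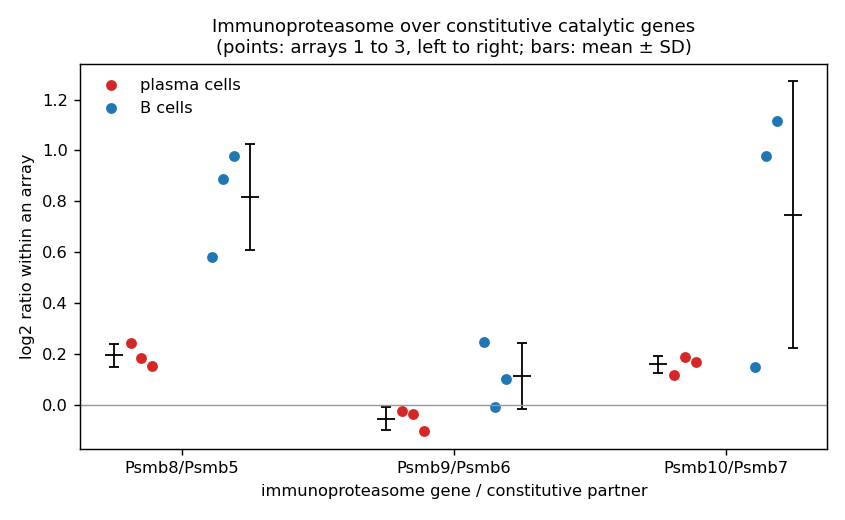
Log2 ratio of each immunoproteasome gene to its constitutive counterpart within an array (y axis) for 3 plasma cell arrays (red, left) and 3 B cell arrays (blue, right), with mean ± SD as bars. The Psmb8 to Psmb5 ratio lies between 0.15 and 0.24 on plasma cell arrays and between 0.58 and 0.98 on B cell arrays, and B cell array 1 is the lowest B cell point for Psmb10 over Psmb7 at 0.15.

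Psmb8 and Psmb9 lie in the MHC region of chromosome 17, next to the peptide transporter genes Tap1 and Tap2, in the order Psmb9, Tap1, Psmb8, Tap2. Tap1 was at 4279, 4134 and 4219 in plasma cells, against 4688, 6704 and 7097 in B cells (−0.52 ± 0.19, adjusted p = 0.0854, and −0.71 with adjusted p = 0.00226 without B cell array 1). All plasma cell arrays lay below all B cell arrays. Tap2 had −0.05 ± 0.26 and was called lower only without B cell array 1 (−0.34, adjusted p = 0.0294). Of 9 measured class I and interferon genes set beside the immunoproteasome, 2 rose and 0 fell. That is 22.2% called higher, near the 17.6% of all genes, of which 12.3% were called lower. The 2 were Erap1, an ER peptidase that trims class I peptides (1.90 ± 0.13), and Tapbp, the loading factor tapasin (0.44 ± 0.12). The class I regulator Nlrc5 had 0.07 ± 0.11 and Irf1, an interferon response factor, −0.41 ± 0.23, neither of them called.

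Promoter sequences (from RefSeq, build GRCm38.p6, 250 bases before to 50 after the start) were matched for 39 of the 47 genes, in 41 promoters. Those of Psma8, Psmb1, Psmb2, Psmb7, Psmc3, Psmd3, Psmd7 and Psmg2 were not matched. The windows below, 60 bases long, are examples chosen after the values were seen, to show what a match looks like in 2 constitutive catalytic genes, an activator and 2 immunoproteasome genes. The capitals mark a match to a searched motif. Coordinates run in the order in which they stand in the genome, and sequences are given 5′ to 3′ on the gene's strand. The matches of Psme4 and Psmb9 read in the opposite orientation.
Psmb5 (chr14:54618008-54618067, minus strand, antioxidant response element core): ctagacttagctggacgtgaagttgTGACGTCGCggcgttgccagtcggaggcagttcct
Psmb6 (chr11:70525323-70525382, plus strand, antioxidant response element core): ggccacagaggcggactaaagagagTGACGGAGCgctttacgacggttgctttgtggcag
Psme4 (chr11:30771743-30771802, plus strand, antioxidant response element core): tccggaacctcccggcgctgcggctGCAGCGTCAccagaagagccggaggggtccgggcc
Psmb8 (chr17:34198073-34198132, plus strand, gamma activated site): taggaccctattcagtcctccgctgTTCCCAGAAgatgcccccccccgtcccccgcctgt
Psmb9 (chr17:34187304-34187363, minus strand, NF-Y box): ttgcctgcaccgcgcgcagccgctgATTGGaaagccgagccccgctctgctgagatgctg
Both strands were searched for TGACNNNGC (the core read by Nfe2l1 and Nfe2l2), TTCNNNGAA (gamma activated site), GAAANNGAA (interferon stimulated response element core) and CCAAT (the NF-Y box). None of these matches overlapped a match of another motif in the members' promoters. TGACNNNGC stood in 14.6% of the members' promoters and 12.4% of all 32851 promoters. Its other matches were in Psmc6, Psmd9 and Psmd12, none of them called higher. TTCNNNGAA stood in 7.32% against 8.30%, GAAANNGAA in 17.1% against 8.56%, and CCAAT in 34.1% against 37.4%. Of the 15 genes called higher with a promoter in the table, 3 held TGACNNNGC, as did 3 of the 24 others. A match is a description of the sequence and does not show that a factor binds there.

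Among the 6 base ATPases of the regulatory particle 1 rose, which is 16.7%, close to the 17.6% of all genes called higher. Psmc2 was at 3750, 3584 and 3516 in plasma cells, against 1933, 2467 and 2257 in B cells (0.71 ± 0.14, adjusted p = 0.011). Its call was lost without plasma cell array 1. The other ATPases, which form the same ring with Psmc2, had log2 fold changes between 0.10 and 0.44, the highest that of Psmc3 (0.44 ± 0.19, adjusted p = 0.149), and were not called. All 6 were lowest among B cells on array 1, and without it those of Psmc4, Psmc5 and Psmc6 were −0.12, −0.077 and −0.0058. The groups of those 3 overlapped. The base scaffold Psmd1 was at 2507, 2560 and 2277 in plasma cells, against 1256, 1067 and 1096 in B cells (1.09 ± 0.13, adjusted p = 0.0016), which is about 2.14-fold. The other scaffold, Psmd2, had 0.31 ± 0.15 and was not called. Psmd4, a ubiquitin receptor, was at 3644, 3525 and 3699 in plasma cells and at 2499, 4477 and 4527 in B cells, with the plasma cells inside the range of the B cells (−0.03 ± 0.25). Without B cell array 1 it was called lower (−0.31, adjusted p = 0.0304), but a dimmer probe set of Psmd4 was called higher with 6 arrays (0.47 ± 0.11).

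Of the 8 lid genes, 4 rose (50%) and 0 fell, against 17.6% and 12.3% of all genes. The median log2 fold change was 0.50. In 7 (87.5%) the plasma cell arrays all lay above the B cell arrays, against 25.4% of all genes. Psmd7, which pairs with the deubiquitinase Psmd14, was at 1062, 1033 and 1001 in plasma cells, against 362, 264 and 256 in B cells (1.77 ± 0.16, adjusted p = 0.00069). This is the highest change among the 47 genes, but it rests on 1 probe set: 2 dimmer ones, at 277 to 399 in plasma cells and 235 to 441 in B cells, had 0.07 ± 0.22 and −0.10 ± 0.22, and the mean of the 3 gave 0.58. Psmd8 rose by 0.97 ± 0.12 and Psmd3 by 0.57 ± 0.14. Psmd6 was at 5885, 5923 and 5749 in plasma cells and 3678, 4330 and 4455 in B cells (0.50 ± 0.13, adjusted p = 0.0306). The calls of Psmd3 and Psmd6 were lost without any plasma cell array and without B cell array 2, and that of Psmd6 also without B cell array 3. Psmd12 had 0.50 ± 0.19 (adjusted p = 0.102), Psmd11 0.23, Psmd14, the deubiquitinase of the lid, 0.22, and Psmd13 0.13, none of them called. Of the Psmd11 probe sets, 2 dimmer ones were called higher with 0.67 and 0.68. Without B cell array 1 the lid genes called higher were 5, where 22.7% of all genes were, and the median was 0.36. Without plasma cell array 1, 2 or 3, or B cell array 2, the count was 2.

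**Figure D4:**
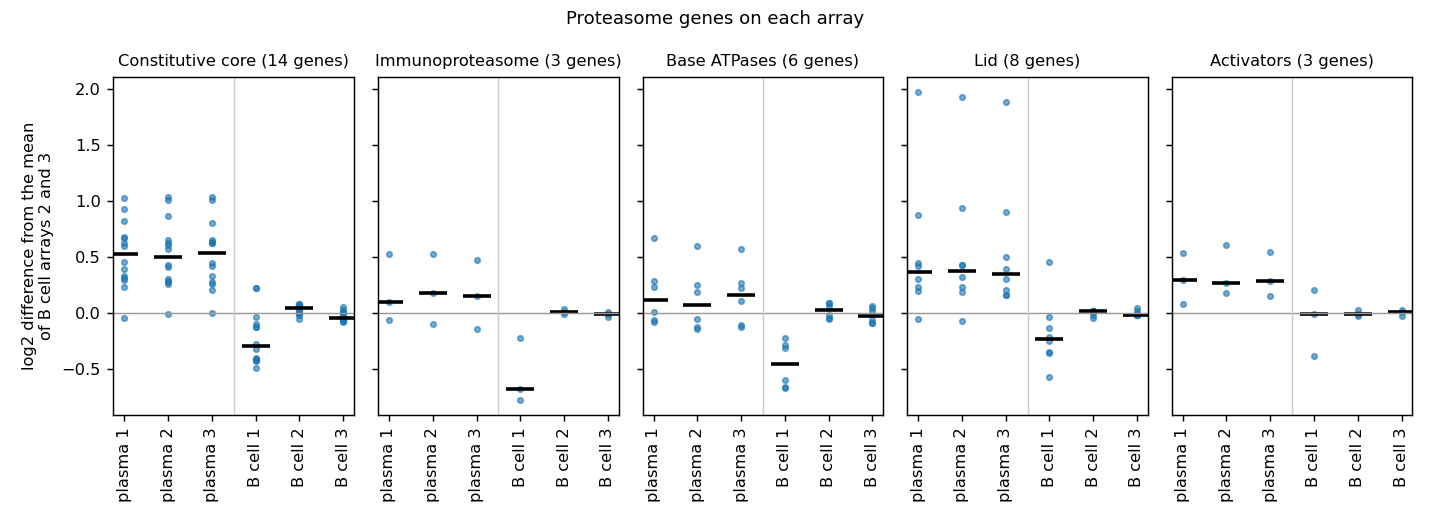
Log2 difference of each gene from the mean of B cell arrays 2 and 3 (y axis) on the 3 plasma cell arrays (left) and 3 B cell arrays (right), for 5 classes, with points for genes and black bars for class medians. The constitutive core has medians of 0.50 to 0.53 on plasma cell arrays and −0.30 on B cell array 1, and the base ATPases 0.07 to 0.16 and −0.46, so part of the distance from the B cells as a group comes from that array.

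Of the 3 measured activators of the core that act without ATP, 1 rose (33.3%), where 17.6% of all genes did. Psme4, which encodes PA200, was at 3640, 3831 and 3666 in plasma cells, against 1910, 2550 and 2461 in B cells (0.69 ± 0.15, adjusted p = 0.0175). Its call was lost without any plasma cell array, but 3 of its 5 dimmer probe sets were called higher as well, with 0.55, 0.78 and 1.05. Psme1, a subunit of the interferon-inducible activator PA28, was at 8622, 8501 and 8579 in plasma cells, against 7006, 6904 and 7191 in B cells (0.28 ± 0.11, adjusted p = 0.0983). The groups were tight and separate, and the gene was called without B cell array 1 (0.28, adjusted p = 0.0407). The probe set of its partner Psme2 carries a second gene symbol as well, and Psme2 is not reported. Psme3, the nuclear PA28 form, was at 1851, 1973 and 1943 in plasma cells and 2022, 1733 and 1763 in B cells (0.07 ± 0.12, adjusted p = 0.724). The groups overlapped, while a dimmer probe set was called higher (0.60 ± 0.12). The gene of the inhibitor PI31, Psmf1, was at 473, 508 and 455 in plasma cells, against 269, 343 and 315 in B cells (0.61 ± 0.14, adjusted p = 0.0195). That call was lost with the mean of its 4 probe sets, without any plasma cell array and without B cell array 3.

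Of the 4 core assembly factors 2 rose, and of the 3 base assembly factors 0 rose and 1 fell. Over all genes 17.6% rose and 12.3% fell. The chaperones Psmg1 and Psmg2 form a dimer that guides the alpha ring. Psmg1 was at 889, 946 and 945 in plasma cells, against 420, 396 and 455 in B cells (1.10 ± 0.12, adjusted p = 0.00113, about 2.15-fold). Psmg2 was at 2272, 2202 and 2345 in plasma cells, against 2174, 2261 and 2236 in B cells (0.03 ± 0.11), with overlapping groups. Psmg3 and Psmg4 form another dimer. Psmg4 was at 788, 818 and 791 in plasma cells, against 282, 440 and 516 in B cells (0.97 ± 0.23, adjusted p = 0.0245), and Psmg3 at 1640, 1702 and 1740 in plasma cells, against 1748, 1738 and 1929 in B cells (−0.09 ± 0.11). In each dimer 1 gene was called and the other was not; the difference between them was not tested. The call of Psmg4 was lost without B cell array 2 or any plasma cell array, and a dimmer probe set of Psmg2 was called higher (0.47 ± 0.12). Among the chaperones of the base, Psmd5 was at 1385, 1229 and 1486 in plasma cells, against 1318, 1463 and 1458 in B cells (−0.05 ± 0.13). Psmd10, gankyrin, was at 1044, 983 and 980 in plasma cells, against 998, 964 and 958 in B cells (0.04 ± 0.11). The groups of both overlapped. Psmd9 fell, at 359, 393 and 409 in plasma cells, against 565, 708 and 675 in B cells (−0.72 ± 0.14, adjusted p = 0.0111). Its probe sets disagree: the next brightest was at 544, 596 and 618 in plasma cells and 289, 349 and 307 in B cells, called higher with 0.87 ± 0.13. The direction of Psmd9 is therefore uncertain, and its call was also lost without plasma cell array 1.

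Probe sets gave this check for 26 of the 47 genes. Of 53 further probe sets, 42 were over background on all 6 arrays, and 31 of those had the sign of the brightest probe set of their gene. Among the 20 further ones of genes called higher, 8 were called higher and 0 lower. A dim probe set of Psma1 was called lower, with −1.29 ± 0.26, where the brightest had 0.31 and was not called. No member came near the upper end of the scale, since their highest value was 8622 (Psme1), while the arrays reached 25764 to 26749.

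**Figure D5:**
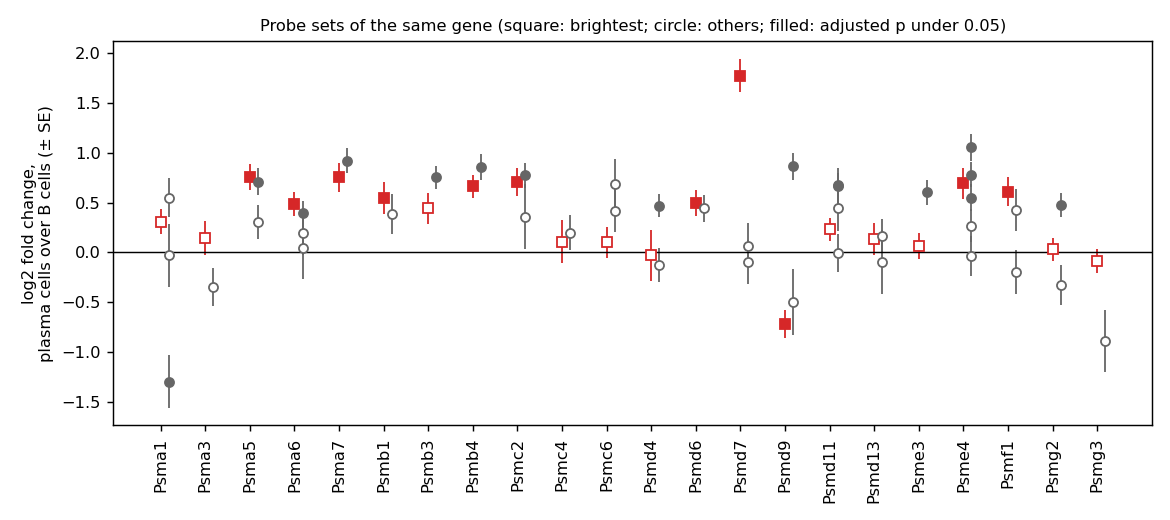
Log2 fold change (y axis, ± SE from limma fitted to all probe sets with 1 symbol) of every probe set over background on all 6 arrays, for genes with more than 1 such probe set; squares are the brightest, circles the others, filled where the adjusted p is under 0.05. Psmd9 has called probe sets at −0.72 and 0.87, and Psmd7 has 1.77 beside 0.07 and −0.10.

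Replicates of the plasma cells were close together for these genes. The median SD of log2 values over 3 arrays was 0.04 in plasma cells and 0.18 in B cells for the 47 genes. For all genes it was 0.16 and 0.29, and B cell arrays 2 and 3 differed by a median of 0.07 for the members. The 2 sets are unlike in brightness. On all 6 arrays 45 of the 47 members were over background, while 13636 of 18193 genes were so on at least 3 arrays. The part of brightness in these SDs was not tested.

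Of 30 partner genes listed from the pathway, with earlier results of these data known, 21 had a probe set of their own. Of these 6 rose (28.6%) and 1 fell, against 17.6% and 12.3% of all genes. Several partner genes belong to the route that activates Nfe2l1, a transcription factor of proteasome genes made in the ER membrane. It is extracted by the ATPase Vcp with its cofactors Ufd1 and Nploc4, and freed of its sugars by Ngly1. The partner list also names the regulator Ddi2, which was not among the 21 and has no value here. Nfe2l1 was at 4350, 4924 and 4802 in plasma cells, against 2428, 2821 and 3370 in B cells (0.72 ± 0.16, adjusted p = 0.0191). Ngly1 was at 2941, 2874 and 2799 in plasma cells, against 1301, 1042 and 1046 in B cells (1.34 ± 0.14, adjusted p = 0.000969). Vcp was at 8004, 8158 and 7451 in plasma cells, against 2634, 3612 and 3952 in B cells (1.23 ± 0.18, adjusted p = 0.00403). These 3 genes had separate groups. Nploc4 rose by 1.18 ± 0.14, and Ufd1 had 0.33 ± 0.12 and was not called. The gene of the related factor Nfe2l2, the regulator of the antioxidant response, fell: it was at 1148, 1064 and 1059 in plasma cells, against 1440, 1534 and 1654 in B cells (−0.49 ± 0.12, adjusted p = 0.0252). That call was lost without any plasma cell array and without B cell array 2 or 3. The proteasome shuttle Rad23b rose by 0.78 ± 0.14 and Txnl1, a redox protein bound to the regulatory particle, by 0.96 ± 0.13. The maturation factor Pomp had 0.30 ± 0.17 and Akirin2, which brings proteasomes into the nucleus, −0.22 ± 0.13, neither called. Without B cell array 1, 10 partner genes rose and 2 fell, where 22.7% and 21.1% of all genes were called in these directions.

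Related complexes give a scale for these changes. Of 10 measured COP9 signalosome genes, relatives of the lid, 2 rose (20%), with a median log2 fold change of 0.26. Of 11 measured Eif3 subunits, built on a similar plan, 1 rose (9.09%), with a median of 0.17. Over all genes 17.6% were called higher and 12.3% lower. On B cell array 1, 10 of the 11 Eif3 genes were lowest among the B cells. Another list held 33 genes chosen by a Ube2 symbol, whether or not they encode a ubiquitin-conjugating enzyme. Of them 10 rose (30.3%) and 4 fell, with a median of 0.15. Ube2j1, Ube2j2 and Ube2g2 among them are counted again in the next list. In ER-associated degradation, which delivers substrates to the proteasome, 16 of 19 rose, with a median of 1.50, against 0.39 for the 47 proteasome genes. These differences between lists were not tested, and the lists were chosen with earlier results of these data known.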

How the data were processed

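The deposited file holds linear intensity values, 1 per probe set and array, for 6 arrays. Per the labels' protocols, RNA was amplified with NuGEN Ovation V2 and labelled with biotin. How the authors summarised and normalized the deposited intensity values is not stated in the labels or file header. Upper quartiles lay between 625 and 684, and 0 sample columns were left unmatched. Medians were less even, at 130 on B cell array 1 and 86.7 to 95.1 on the other arrays. On B cell array 1, 13.1% of probe sets were under 16, against 20.7% to 22.6% on the others. Probe sets with 1 symbol in the platform annotation of 2016 (34945 of 45101) were updated through Entrez identifiers to RefSeq symbols, and the probe set with the highest mean log2 value represented each gene. Groups followed the sample titles. Plasma cells were compared with B cells by limma 3.58.1 in R 4.3.3 (lmFit, eBayes) on log2(intensity + 16), which understates the change of dim genes. Ratios were tested by exact permutation with scipy 1.17.1. Precision is limited by having 3 arrays a group. The limma fit was tested on simulated data. Same-numbered arrays of the groups did not deviate together (correlations of 0.0484, 0.0047 and 0.0458), so numbers were not taken as pairs. Members and lists were chosen with earlier results of these data known. Genes given per array were the catalytic, activator, inhibitor and assembly genes and, in each other class, the called genes with the highest and lowest change; dimmer probe sets and Tap1, Tap2, Erap1 and Tapbp were named after their values were seen. The alternatives covered the added constant, centring, quantile normalization, a filter on dim genes, probe set choice, array weights, an intensity trend, a replicate block and each array left out; fitting every probe set was added after the data were seen.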

Additional observations from a re-analysis of the deposited data

How the results depend on the processing

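The main setting and 16 alternatives were compared, and none of the alternatives turned the direction of the 21 called proteasome genes. Median centring gave 2028 genes higher over all genes, 6 proteasome genes, 2 in the constitutive core, 0 immunoproteasome genes, 0 ATPases, 2 lid genes, 0 activators, and 3 partner genes higher with 0 lower. Array weights, which gave B cell array 1 a weight of 0.0938, gave 4840 genes higher and 4654 lower over all genes, 30 proteasome genes higher and 2 lower, 3 ATPases, 2 activators, and 10 partner genes higher with 4 lower. The intensity trend gave 10 partner genes, 2 ATPases and 2 activators, and a pseudocount of 64 gave 2 activators. The mean of all probe sets gave 0 proteasome genes and 0 partner genes lower. Same-numbered arrays share only a number. With the replicate block 2457 of all 18193 genes and 12 proteasome genes were higher, with 0 immunoproteasome genes, 0 ATPases, 2 lid genes and 0 activators. The block called 0 partner genes lower. With 1 array left out in turn, the counts ran from 2224 to 4121 higher and 1347 to 3830 lower over all genes, 9 to 24 and 0 to 2 for proteasome genes, 5 to 10 and 0 to 2 for partner genes, 5 to 11 in the core, 0 to 1 for the immunoproteasome, 0 to 1 for ATPases, 2 to 5 in the lid and 0 to 2 for activators. Log2 fold changes of uncalled genes changed sign. Under median centring they were −0.064 for Psma3, −0.053 for Psmb8, −0.10 for Psmc4, −0.066 for Psmc5, −0.11 for Psmc6, −0.17 for Psmd10, −0.074 for Psmd13, −0.14 for Psme3 and −0.18 for Psmg2. Under array weights they were −0.042 for Psma3, −0.10 for Psmb8, −0.15 for Psmc4, −0.11 for Psmc5 and −0.017 for Psmd13. With the mean of all probe sets they were −0.12 for Psma1, −0.10 for Psma3, −0.11 for Psmd2 and 0.10 for Psmd4. The mean for Psmd2 takes in a probe set at 7.04 to 28.5, over background on 0 arrays. With quantile normalization the value was −0.016 for Psmg2. With 1 array left out, the ranges that crossed 0 were −0.019 to 0.25 for Psma3, −0.10 to 0.30 for Psmb8, −0.12 to 0.26 for Psmc4, −0.077 to 0.30 for Psmc5, −0.0058 to 0.18 for Psmc6, −0.31 to 0.11 for Psmd4 and −0.11 to 0.023 for Psmd5. The cause of these changes was not tested. The catalytic ratios kept their sign, at −0.74 to −0.43, −0.23 to −0.10 and −0.89 to −0.40. These are the alternatives that could be applied to a ratio, which leaves out array weights, the trend and the block. The −0.43 came from the mean of all probe sets, which takes in a Psmb8 probe set at 1.56 to 13.9, over background on 0 arrays. In the other settings the change of Psmb8 over Psmb5 lay between −0.74 and −0.54. Psma8 and Psmb11, within background on most or all arrays, are given no fold under any setting.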
